A study of Mus musculus with 3 samples.

Results

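The 10 genes described here encode transcription factors that pattern the lower jaw: the 6 distal-less genes *Dlx1* to *Dlx6*, the muscle-segment homeobox genes *Msx1* and *Msx2*, the paired-related homeobox gene *Prrx1*, and *Hand2*, whose product is a basic helix-loop-helix factor. They were taken by symbol from a table of 26970 genes, by a rule that uses no measured value. Of the 10, 7 had a mean of at least 1 FPKM (fragments scaled to exon length and library size) over the 3 libraries and entered the comparisons across genes. *Dlx4*, *Msx2* and *Hand2* were under that level and are described by their fragments. *Hand2*, which names the group together with the homeobox genes, was at or under the limit of detection in every library.

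Gene expression was measured by RNA sequencing of mandibular condyles from 4-month-old mice, with 1 library each for wild type (WT), *Dspp*+/- and *Dspp*-/-. *Dspp* encodes dentin sialophosphoprotein, a secreted matrix protein of dentin and bone, and the comparison asks how its loss bears on bone formation in the condyle. The *Dspp*-/- mice were global knockouts in the C57BL/6 background, so the gene was lost in every tissue and not only in the joint. The *Dspp*+/- mice came from crosses of these with C57BL/6 wild type mice, and no group received a treatment. Per the study's methods, tissue of 3 animals was pooled for WT and for *Dspp*+/-, and the number for *Dspp*-/- is not given in the sources used here. With 1 library per genotype no difference between genotypes could be tested, and every interval below covers counting error only, not the spread between animals. The libraries held between 20241574 and 23613630 fragments, and mitochondrial genes took a smaller share of the FPKM for WT (25.0%) than for *Dspp*+/- (36.9%) or *Dspp*-/- (37.3%).

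DLX proteins are homeodomain factors that give the first pharyngeal arch its upper and lower identity, and they are made from linked gene pairs. In the embryo, endothelin-1 acts through its receptor EDNRA to raise *Dlx5* and *Dlx6* in the lower part of the arch, and these in turn activate *Hand2*. In the skeleton formed later, DLX3 and DLX5 are known for activating osteoblast genes, MSX proteins mainly repress transcription, and PRRX1 marks craniofacial and limb mesenchyme and its skeletal progenitors.

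The homeobox is the feature that the 9 genes other than *Hand2* share, and its similarity bears on whether fragments of one gene can be counted for another. The stretches below, shown for 8 of these genes, code for residues 42 to 58 of the 60-residue homeodomain, which hold the helix that reads the DNA. They were read 5′ to 3′ on the coding strand from GENCODE M21 transcripts (GRCm38), and capitals mark bases that differ from *Dlx5*.
Dlx5: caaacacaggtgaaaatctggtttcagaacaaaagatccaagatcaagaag
Dlx6: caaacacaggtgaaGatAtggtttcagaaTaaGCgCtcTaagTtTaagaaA
Dlx1: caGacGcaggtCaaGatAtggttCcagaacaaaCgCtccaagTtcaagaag
Dlx2: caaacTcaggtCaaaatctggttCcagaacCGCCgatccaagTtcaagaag
Dlx3: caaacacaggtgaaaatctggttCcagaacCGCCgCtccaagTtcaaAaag
Dlx4: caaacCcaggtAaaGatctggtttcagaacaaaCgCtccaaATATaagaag
Msx2: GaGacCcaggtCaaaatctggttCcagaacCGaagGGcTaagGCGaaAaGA
Prrx1: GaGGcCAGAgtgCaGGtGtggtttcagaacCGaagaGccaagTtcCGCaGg

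The stretch lies within exon 2 in *Msx2* (chr13:53468376-53468426, minus strand). It is split by an intron between exons 2 and 3 in *Dlx5* (chr6:6878447-6879534, minus strand), *Dlx6* (chr6:6865263-6867082, plus strand), *Dlx1* (chr2:71531148-71532305, plus strand), *Dlx2* (chr2:71544883-71545392, minus strand), *Dlx3* (chr11:95121890-95123450, plus strand), *Dlx4* (chr11:95141428-95141797, minus strand) and *Prrx1* (chr1:163257907-163261854, minus strand). In this stretch of 51 bases the other DLX genes differed from *Dlx5* at 8 to 10 bases, *Msx2* at 16 and *Prrx1* at 19. Over the whole homeodomain, the genes most alike were not those that lie side by side. *Dlx1* and *Dlx6* had 96.7% of residues and 76.7% of bases in common, and *Dlx2* and *Dlx5* had 93.3% of residues and 75.6% of bases. By bases the DLX genes most alike were *Dlx2* and *Dlx3*, with 81.7% of bases and 91.7% of residues. The linked genes *Dlx5* and *Dlx6* had 85.0% of residues and 73.3% of bases in common. Linked *Dlx1* and *Dlx2* had 86.7% and 73.9%, and linked *Dlx3* and *Dlx4* had 80.0% and 71.7%. *Msx1* and *Msx2* shared 96.7% of residues and 82.2% of bases, whereas *Prrx1* shared 38.3% to 46.7% of residues with the others. Sequences of 100 bases that also occur in the transcripts of another gene made up 4.18% of those of *Dlx1* and 11.7% of those of *Hand2*, and none of those of the other 8 genes. Exons of antisense genes overlapped 6.21% of the exon bases of *Dlx1*, 2.42% of *Dlx4*, 4.38% of *Dlx6* and 19.6% of *Hand2*. The strand used in counting is not given in the sources used here, so fragments of those stretches cannot be told apart from those of *Dlx1as*, *Dlx4os*, *Dlx6os2* and *Hand2os1*.

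The highest of the 10 genes in WT was *Dlx5*, and *Prrx1* was above it in both mutant libraries. In WT the order ran from *Dlx5* (34.0 FPKM) and *Prrx1* (25.0 FPKM) to *Dlx3*, *Dlx6*, *Dlx2*, *Msx1*, *Dlx1*, *Dlx4*, *Msx2* and *Hand2*. Each gene in WT was above the next by more than the counting interval of their ratio, except *Msx2* and *Hand2*. *Dlx5* was 1.36 times *Prrx1* in WT (95% interval 1.29 to 1.44). In *Dspp*+/- *Prrx1* was instead 1.21 times *Dlx5* (1.13 to 1.31), and in *Dspp*-/- 1.27 times (1.19 to 1.35). *Dlx3* was level with *Dlx6* in *Dspp*+/-, where the ratio of *Dlx6* to *Dlx3* was 1.00 (0.847 to 1.19), and below it in *Dspp*-/-, where the ratio was 1.26 (1.09 to 1.45). The other neighbours that did not differ beyond counting error were *Dlx2* and *Msx1* in *Dspp*+/- (ratio 1.09, 0.887 to 1.34), *Dlx4*, *Hand2* and *Msx2* in *Dspp*+/-, and *Dlx4* and *Msx2* in *Dspp*-/-. Against all 13026 genes that averaged 1 FPKM or more, *Dlx5* lay above 91.8% in WT, 80.0% in *Dspp*+/- and 86.4% in *Dspp*-/-. *Prrx1* held its place more closely, above 88.4%, 84.1% and 89.6%. *Dlx1*, the lowest of the 7, lay above 20.2%, 1.14% and 5.65%.

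**Figure D1:**
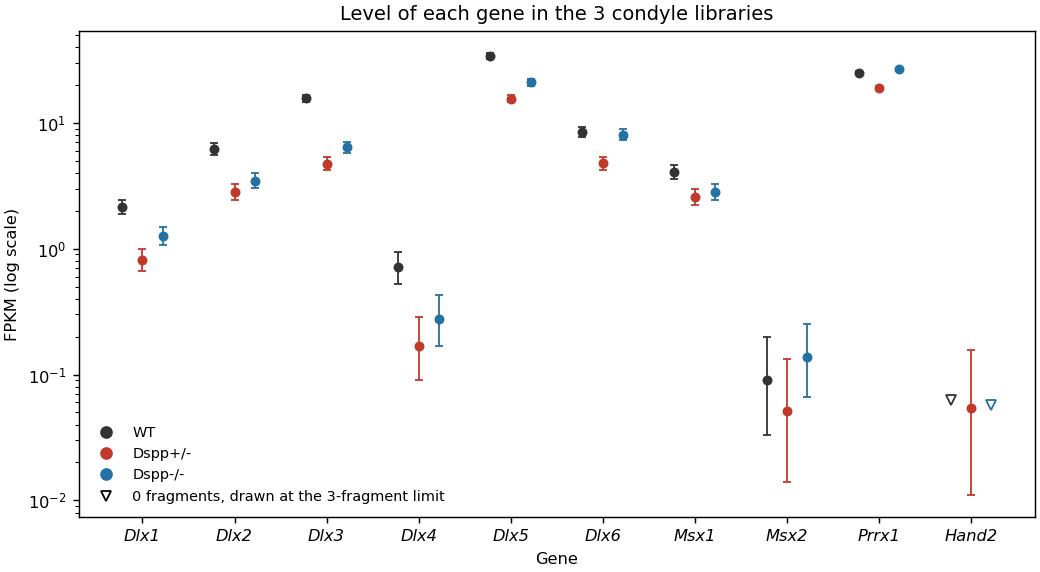
Level of each gene (FPKM, log scale) in the WT, *Dspp*+/- and *Dspp*-/- libraries, 1 library per genotype, with exact 95% counting intervals. Open triangles stand for 0 fragments and are drawn at the 3-fragment limit. On this deposited scaling *Dlx1* to *Dlx6*, *Msx1* and *Prrx1* have *Dspp*+/- lowest. Scaled to osteoblast markers, the 7 tested genes except *Dlx3* lie above WT in *Dspp*+/-, where the median log2 ratio of all genes is then 1.46.

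*Dlx5* and *Dlx6* lie tail to tail on chromosome 6, with *Dlx6* from 6863334 to 6868568 on the plus strand and *Dlx5* from 6877805 to 6882085 on the minus strand, in the positions of the deposited table, whose build is not stated. *Dlx5*, which activates *Sp7* and other osteoblast genes, had 34.0 FPKM for WT, 15.6 for *Dspp*+/- and 21.0 for *Dspp*-/-, from 1556, 834 and 1058 fragments. WT was the highest and *Dspp*+/- the lowest, and the counting intervals of the ratios excluded 1. The level was 0.459 times WT in *Dspp*+/- (0.422 to 0.50) and 0.618 times WT in *Dspp*-/- (0.571 to 0.669). *Dlx6*, its partner under endothelin control in the embryo, had 8.49, 4.76 and 8.08 FPKM from 408, 267 and 427 fragments. Here *Dspp*+/- alone was low. It stood at 0.561 times WT (0.479 to 0.656) and 0.589 times *Dspp*-/- (0.504 to 0.688), while *Dspp*-/- stood at 0.952 times WT (0.829 to 1.09), an interval that includes 1. *Dlx6os1*, a noncoding RNA of this locus also known as Evf2, had 2.65, 1.45 and 1.99 FPKM, or 0.548 times WT in *Dspp*+/- (0.451 to 0.664) and 0.752 times in *Dspp*-/- (0.628 to 0.899). *Dlx6os2*, which overlaps *Dlx6*, had 7, 1 and 1 fragments.

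*Dlx1* and *Dlx2* lie on chromosome 2, from 71358457 to 71364325 on the plus strand and from 71373752 to 71377098 on the minus strand. Both are active in the upper and lower parts of the arch. *Dlx2* had 6.21 FPKM for WT, 2.82 for *Dspp*+/- and 3.48 for *Dspp*-/-, from 359, 190 and 221 fragments. Both mutant libraries were below WT, at 0.454 times (0.378 to 0.542) and 0.560 times (0.471 to 0.664), and *Dspp*+/- was at 0.810 times *Dspp*-/- (0.664 to 0.988). *Dlx1* had 2.14, 0.816 and 1.27 FPKM from 234, 104 and 152 fragments. The order was the same as for *Dlx2*, at 0.381 times WT in *Dspp*+/- (0.299 to 0.482) and 0.591 times in *Dspp*-/- (0.479 to 0.728). *Dlx1as*, which is antisense to *Dlx1*, had 1.12, 0.883 and 1.38 FPKM, with intervals of its ratio to WT that include 1 in both mutant libraries (0.480 to 1.29 and 0.788 to 1.93).

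*Dlx3* and *Dlx4* lie on chromosome 11, from 95010945 to 95016122 on the plus strand and from 95031273 to 95037089 on the minus strand. *Dlx3* acts in osteoblasts, hair follicles and enamel-forming cells, and changes in the human gene cause tricho-dento-osseous syndrome. It had 15.7 FPKM for WT, 4.74 for *Dspp*+/- and 6.41 for *Dspp*-/-, from 827, 292 and 372 fragments. It was the member furthest from WT among the 7, at 0.303 times in *Dspp*+/- (0.264 to 0.346) and 0.409 times in *Dspp*-/- (0.361 to 0.463). *Dlx4* had only 47, 13 and 20 fragments, for 0.710, 0.168 and 0.275 FPKM. Its ratio to WT was 0.237 (0.118 to 0.445) and 0.387 (0.217 to 0.666), so the wide intervals overlap those of *Dlx3*. *Dlx4os*, antisense to it, had 27, 6 and 11 fragments.

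*Dlx3* is also made in enamel organ and skin, and markers of those tissues were near 0 in the condyle libraries. Of 7 ameloblast markers 2 were analysed, with a summed level of 0.315 FPKM for WT, 0.485 for *Dspp*+/- and 0.517 for *Dspp*-/-, and *Klk4* was at 0 in *Dspp*+/-. Of 8 keratinocyte markers 6 were analysed, with a summed level of 1.80, 2.07 and 1.56 FPKM, and *Krt14* was at 0 in WT and *Dspp*-/-. None of the markers reached a mean of 1 FPKM. *Ambn* (3, 22 and 19 fragments) and *Trp63* (55, 150 and 124) were above WT in both mutant libraries beyond counting error. *Klk4* in *Dspp*+/- and *Lor* in *Dspp*-/- were below WT beyond counting error. Which cells gave the *Dlx3* fragments was not tested.

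*Msx1*, on chromosome 5 from 37977829 to 37981927, encodes a repressor needed for tooth and palate formation. It had 4.10 FPKM for WT, 2.58 for *Dspp*+/- and 2.81 for *Dspp*-/-, from 257, 189 and 194 fragments. Both mutant libraries were below WT, at 0.630 times (0.520 to 0.764) and 0.687 times (0.567 to 0.831), and they did not differ from each other beyond counting error, with a ratio of 0.918 (0.747 to 1.13). *Msx2*, on chromosome 13 from 53620920 to 53627110, is known for its part in skull and tooth development. It had 6, 4 and 10 fragments, for 0.0904, 0.0517 and 0.137 FPKM, and neither mutant library differed from WT beyond counting error, with intervals of 0.119 to 2.41 and 0.499 to 5.08. At this depth a difference of *Msx2* was not detectable.

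*Prrx1*, on chromosome 1 from 163072688 to 163141279, had 25.0 FPKM for WT, 18.9 for *Dspp*+/- and 26.6 for *Dspp*-/-. It had the most fragments of the 10 genes, at 5593, 4949 and 6561, and so the narrowest intervals. The mutant libraries lay on opposite sides of WT, at 0.758 times in *Dspp*+/- (0.730 to 0.788) and 1.07 times in *Dspp*-/- (1.03 to 1.11), except that scaling to osteoblast markers put both above WT. *Prrx2*, its paralog, had 9.80, 7.28 and 5.25 FPKM, with *Dspp*-/- the lowest at 0.535 times WT (0.453 to 0.632).

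*Hand2*, on chromosome 8 from 57774018 to 57777668, had 0 fragments for WT, 3 for *Dspp*+/- and 0 for *Dspp*-/-. The limit for a count of 0, set at 3 fragments, was 0.0630 FPKM in WT and 0.0573 FPKM in *Dspp*-/-, and the 3 fragments in *Dspp*+/- are 0.0540 FPKM, so no ratio was computed. *Hand2os1* had 1, 1 and 0 fragments, and *Hand1*, the gene most like it, had 0, 0 and 13. The adult condyle libraries thus held *Dlx5*, *Dlx6* and *Ednra* without *Hand2* at a level these libraries could show. *Hand2* also acts in sympathetic neurons, and of 7 markers of these 3 were analysed, with a summed level of 0.984, 1.52 and 1.19 FPKM.

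In *Dspp*+/- against WT, the 7 genes that averaged 1 FPKM or more were all lower on the deposited scaling, with *Dlx3* furthest down. Once scaled to osteoblast markers, *Dlx3* alone of the 7 was lower, and the median log2 ratio of all genes was then 1.46. On the deposited scaling the log2 ratio of FPKM + 1, in which low genes move less than their FPKM, was -1.54 for *Dlx3*, -1.07 for *Dlx5*, -0.92 for *Dlx2*, -0.79 for *Dlx1*, -0.72 for *Dlx6*, -0.51 for *Msx1* and -0.38 for *Prrx1*. Their median was -0.79, beside 0.06 for all 13026 genes, whose quartiles were -0.21 and 0.31. Only *Dlx3* and *Dlx5*, 2 of the 7, were at least 2-fold lower on that scale, and 0 were 2-fold higher. Among all genes tested 2.86% were 2-fold lower and 4.88% were 2-fold higher. *Dlx1* and *Dlx2* were also more than 2-fold lower in FPKM itself but not on the log2(FPKM + 1) scale. By the second rule, a counting interval of the fold wholly on one side of 1, all 7 were lower, beside 28.3% of all genes lower and 39.2% higher.

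In *Dspp*-/- against WT the genes parted on the deposited scaling. Once scaled to osteoblast markers *Dlx3* alone of the 7 was below WT, and the median log2 ratio of all genes was then 0.77. On the deposited scaling *Dlx3* had a log2 ratio of -1.17, *Dlx2* of -0.69, *Dlx5* of -0.67, *Dlx1* of -0.47 and *Msx1* of -0.42, whereas *Dlx6* (-0.06) and *Prrx1* (0.09) were close to WT. The median was -0.47, beside 0.01 for all genes with quartiles of -0.26 and 0.26. Only *Dlx3*, 1 of the 7, was at least 2-fold lower and 0 were 2-fold higher, against 1.37% and 4.05% of all genes. By the counting interval 5 of the 7 were lower, beside 33.4% of all genes, and 1 of the 7, *Prrx1*, was higher, beside 34.0%. The shares of all genes past the counting interval are large because deep libraries give narrow intervals, so that rule was read only beside them.

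The mutant libraries were also set against each other. On the deposited scaling the 7 log2 ratios of *Dspp*+/- against *Dspp*-/- ran from -0.66 for *Dlx6* to -0.09 for *Msx1*, with a median of -0.37 beside 0.04 for all genes, and scaled to osteoblast markers that median turned to 0.24 beside 0.67. None of the 7 was 2-fold lower or higher, and among all genes 0.852% and 0.798% were. The interval was below 1 for 6 of the 7, all but *Msx1*, and above 1 for 0, beside 25.4% and 34.5% of all genes. All 7 had their lowest FPKM in *Dspp*+/-, as had 26.6% of all genes, but scaled to osteoblast markers all but *Dlx6* were higher in *Dspp*+/- than in *Dspp*-/-. For 6 of the 7 both intervals against the other libraries were below 1, as they were for 13.7% of all genes. *Dspp*+/- and *Dspp*-/- were compared with the same WT library, so these comparisons share it.

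**Figure D2:**
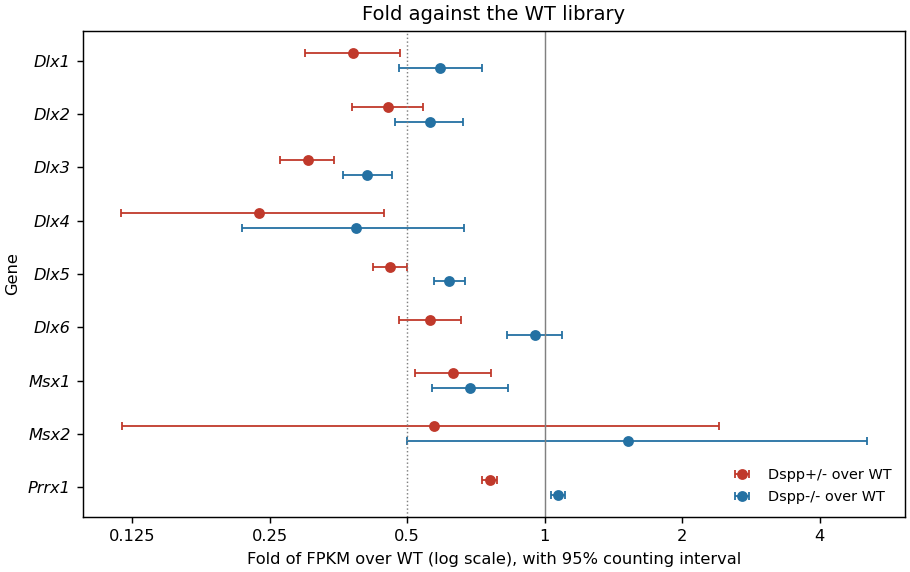
Fold of FPKM over WT (log scale) for *Dspp*+/- and *Dspp*-/-, with 95% counting intervals, for the 9 genes with fragments in WT. The dotted line marks 2-fold lower. On the deposited scaling the points of *Dlx3* and *Dlx4* lie left of that line in both mutant libraries. Those of *Dlx1*, *Dlx2* and *Dlx5* lie left of it in *Dspp*+/-. *Dlx6* and *Prrx1* lie at or near 1 in *Dspp*-/-, and the *Msx2* intervals span 1. Scaled to osteoblast markers, all of the 7 tested genes but *Dlx3* would lie above 1 in both mutant libraries. No intervals were computed on that scaling, and the median log2 ratio of all genes was then 1.46 and 0.77.

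A ratio of genes within a library does not depend on the scaling between libraries. *Dlx5* was 4.00 times *Dlx6* in WT (3.59 to 4.47), 3.28 times in *Dspp*+/- (2.85 to 3.78) and 2.60 times in *Dspp*-/- (2.32 to 2.92), although only 9236 bases lie between them. The interval in *Dspp*-/- lay apart from that of WT, and the interval of *Dspp*+/- overlapped both. Overlap of such intervals does not show that the ratios are equal. *Dlx1* was 0.345 times *Dlx2* in WT (0.291 to 0.408), 0.290 times in *Dspp*+/- (0.226 to 0.370) and 0.364 times in *Dspp*-/- (0.294 to 0.449). *Dlx3* was 22.1 times *Dlx4* in WT (16.4 to 30.3), 28.2 times in *Dspp*+/- (16.2 to 53.5) and 23.3 times in *Dspp*-/- (14.9 to 38.6). In the latter pairs all intervals overlapped, so no shift within either pair stood out by this measure. *Msx1* and *Msx2*, which lie on different chromosomes, had ratios with overlapping intervals of 20.6 to 125, 19.2 to 186 and 10.9 to 43.5.

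The 6 DLX genes together had 67.2 FPKM for WT, 28.9 for *Dspp*+/- and 40.5 for *Dspp*-/-. *Dlx5* made up 50.6%, 54.0% and 51.8% of this sum. The share of *Dlx3* was 23.3% in WT and 16.4% and 15.8% in the mutant libraries, while that of *Dlx6* was 12.6% in WT and 16.5% and 19.9%. *Dlx2* had 9.25%, 9.75% and 8.58%, and *Dlx1* and *Dlx4* had no more than 3.19% each. By locus, the summed level in *Dspp*+/- was 0.30 times WT for *Dlx3* and *Dlx4*, 0.435 times for *Dlx1* and *Dlx2* and 0.480 times for *Dlx5* and *Dlx6*, and in *Dspp*-/- 0.408, 0.568 and 0.685 times. Grouped instead by likeness of the homeodomain, *Dlx2*, *Dlx3* and *Dlx5* were at 0.415 and 0.553 times WT, and *Dlx1*, *Dlx4* and *Dlx6* at 0.507 and 0.848 times. These folds hold on the deposited scaling and turn above 1 for most DLX genes when the libraries are scaled to osteoblast markers. The median log2 ratio of all genes is then 1.46 in *Dspp*+/- and 0.77 in *Dspp*-/-.

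**Figure D3:**
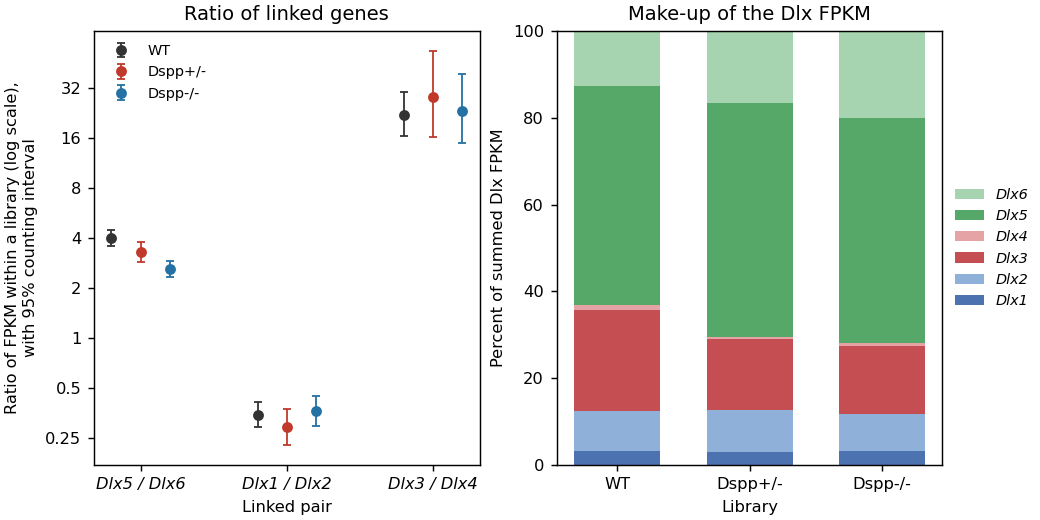
Left, ratio of FPKM of linked DLX genes within each library (log scale) with 95% counting intervals, 1 library per genotype. Right, share of each DLX gene in the summed DLX FPKM (percent). The *Dlx5* to *Dlx6* ratio is 4.00 in WT and 2.60 in *Dspp*-/-, the other ratios have overlapping intervals, and *Dlx5* is 50.6% to 54.0% of the sum.

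RefSeq windows around the transcription start, from 250 bases before to 50 after, were at hand for 6 of the 10 genes (GRCm38.p6). Those of 3 are shown, as they are those of tested genes with bases upstream of every annotated exon of the gene: *Dlx2* (chr2:71546755-71547004, minus strand) and *Msx1* (chr5:37824586-37824835, minus strand), which were lower than WT in both mutant libraries, and *Prrx1* (chr1:163313711-163313900, minus strand), which was not. Capitals mark any of the letters TAATTA or TAATTG (homeodomain core), TGTGGT (RUNX core), CATCTG (a HAND E-box) and TATAAA, searched on both strands.
Dlx2: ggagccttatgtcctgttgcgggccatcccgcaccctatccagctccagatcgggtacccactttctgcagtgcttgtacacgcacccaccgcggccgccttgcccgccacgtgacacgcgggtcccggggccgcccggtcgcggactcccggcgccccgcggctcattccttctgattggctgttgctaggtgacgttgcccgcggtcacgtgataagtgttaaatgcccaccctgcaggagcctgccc
Msx1: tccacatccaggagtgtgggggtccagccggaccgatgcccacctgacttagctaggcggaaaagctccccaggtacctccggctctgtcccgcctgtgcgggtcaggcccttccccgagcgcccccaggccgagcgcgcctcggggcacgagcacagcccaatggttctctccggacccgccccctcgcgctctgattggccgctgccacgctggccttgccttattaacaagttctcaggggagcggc
Prrx1: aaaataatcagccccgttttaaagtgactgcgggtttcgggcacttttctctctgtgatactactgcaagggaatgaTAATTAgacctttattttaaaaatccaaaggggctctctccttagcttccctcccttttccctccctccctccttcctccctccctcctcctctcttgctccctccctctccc

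The *Prrx1* window held TAATTA 173 bases before the start, whereas none of the motifs was found in the windows of *Dlx1*, *Dlx2* and *Msx1*. *Msx2* held TAATTA 187 bases before its start, and *Hand2* held TAATTA at 175, TAATTG at 124 and CATCTG at 246 bases. Of 32851 promoters of this length, 5.29% held TAATTA, 8.0% TAATTG, 16.8% TGTGGT, 17.2% CATCTG and 13.6% TATAAA. A match is a string of letters and not a shown binding site. The windows also differed in base composition, with 69.3% G or C and 27 CpG for *Dlx1*, 66.3% and 29 for *Dlx2*, 70.0% and 29 for *Msx1*, 61.0% and 22 for *Msx2*, 50.3% and 17 for *Hand2*, and 47.7% and 6 for *Prrx1*, beside medians of 52.7% and 7.00 over all promoters.

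Genes next to the DLX loci did not all follow them. *Metap1d*, beside *Dlx1*, had 7.31, 7.63 and 6.47 FPKM. The interval of its ratio to WT included 1 in *Dspp*+/- (0.941 to 1.16) and lay below 1 in *Dspp*-/- (0.794 to 0.987). *Itga6*, on the other side of that pair, had 7.65, 12.3 and 12.1 FPKM and was above WT in both mutant libraries. *Itga3*, beside *Dlx3*, had 2.55, 2.33 and 1.73 FPKM, or 0.912 times WT in *Dspp*+/- (0.776 to 1.07) and 0.678 times in *Dspp*-/- (0.567 to 0.811). Beside *Dlx5* and *Dlx6*, *Sem1* had 11.2, 7.02 and 10.1 FPKM, low in *Dspp*+/- at 0.627 times WT (0.562 to 0.698) as *Dlx6* was, while *Sdhaf3* had 1.32, 1.39 and 1.54. Beside *Msx1*, *Cytl1*, a cartilage cytokine-like gene, had 94.6, 88.6 and 44.5 FPKM, and beside *Prrx1*, *Gorab* had 4.81, 3.35 and 3.89.

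Regulators that act upstream of or beside these genes in the arch did not move as 1 group. Of 20 endothelin and other first-arch genes, 13 averaged 1 FPKM or more; their median log2 ratio was -0.10 in *Dspp*+/- and -0.33 in *Dspp*-/-, with 1 gene 2-fold lower in *Dspp*+/- and 0 in *Dspp*-/-. *Edn1*, the ligand, had 1.78 FPKM for WT, 3.96 for *Dspp*+/- and 2.44 for *Dspp*-/-. In FPKM it was 2.23 times WT in *Dspp*+/- (1.70 to 2.93), but its log2 ratio of FPKM + 1 was 0.84, so it was not called 2-fold higher. On the deposited scaling this was opposite in direction to *Dlx5* and *Dlx6*. Scaled to osteoblast markers, *Dlx5* and *Dlx6* were above WT too. That scaling raises every gene in *Dspp*+/- by the same factor, and the median log2 ratio of all genes was then 1.46. *Edn1* stood higher relative to *Dlx5* and *Dlx6* in *Dspp*+/- than in WT, and such a ratio within a library does not depend on scaling. *Ednra*, its receptor, had 3.34, 3.10 and 3.68 FPKM, with intervals that include 1 in both mutant libraries (0.805 to 1.07 and 0.960 to 1.27). *Mef2c*, a transcription factor of the same pathway, had 36.7, 42.5 and 43.0 FPKM. *Twist1*, a mesenchymal basic helix-loop-helix factor, was the gene 2-fold lower, at 35.7, 16.1 and 20.2 FPKM. *Gsc* had 5.45, 2.54 and 2.73 FPKM, *Foxc1* 15.5, 8.73 and 8.57, and *Six2* 16.1, 9.61 and 10.1. In *Dspp*+/- *Gsc* was at 0.465 times WT in FPKM but at -0.87 on the log2(FPKM + 1) scale, so it was not called 2-fold lower.

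For other homeobox genes of jaw and limb mesenchyme the median log2 ratio was -0.41 in *Dspp*+/- and -0.17 in *Dspp*-/- over 12 of 22 genes. *Barx1* was 2-fold lower in *Dspp*+/-, and *Pitx1* in both mutant libraries. *Barx1*, expressed in jaw joint and tooth mesenchyme, had 46.2, 19.8 and 24.7 FPKM, above the level of each of the 10 genes in WT. *Pitx1* had 13.5, 6.19 and 5.58 FPKM. *Shox2*, at 15.4, 10.8 and 14.2 FPKM, was low in *Dspp*+/- and near WT in *Dspp*-/-, the order also seen for *Dlx6*. Among E proteins, ID proteins and HAND partners, 7 of 10 genes were tested, with medians of -0.40 and -0.31. *Id3* (156, 71.6 and 79.0 FPKM) was 2-fold lower in *Dspp*+/- and *Id1* (39.8, 28.8 and 18.1 FPKM) in *Dspp*-/-.

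Bone genes with described DLX or MSX control were, by their median, further below WT than the 7 genes on the deposited scaling. Of 12 such genes 11 were tested, and 8 were 2-fold lower in *Dspp*+/- and 2 in *Dspp*-/-, with median log2 ratios of -1.43 and -0.89. Of these genes, 7 are also osteoblast markers. *Sp7*, an osteoblast transcription factor, had 65.4, 23.6 and 34.6 FPKM, and *Ibsp*, which encodes bone sialoprotein, had 1643, 433 and 685. *Runx2*, the factor that commits cells to the osteoblast lineage, had 17.7, 9.90 and 13.8 FPKM, which is 0.558 and 0.776 times WT. *Bmp2* (11.0, 6.52 and 7.65 FPKM), *Bmp4* (11.3, 5.84 and 5.26) and *Bmp7* (6.70, 2.42 and 3.11) encode ligands of the same pathway.

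Most markers of bone, cartilage and fibrous layer cells were, like most of the 7 genes, below WT on the deposited scaling. Exceptions such as *Sox6* and *Prg4* were above WT in both mutant libraries. All 16 osteoblast markers were lower in *Dspp*+/-, 15 of them 2-fold, and their summed level was 21311 FPKM for WT, 5873 for *Dspp*+/- and 11717 for *Dspp*-/-. Of 16 chondrocyte markers 14 were tested and 10 and 8 were 2-fold lower, with summed levels of 1918, 535 and 856 FPKM, and *Matn1* was at 0 in *Dspp*+/-. The 11 tendon and fibrous layer markers summed to 2327, 1441 and 1744 FPKM. Blood-forming cell markers went the other way, with 9 of 10 erythroid markers 2-fold higher in each mutant library and summed levels of 952, 3804 and 3706 FPKM, and all 10 neutrophil markers higher with 628, 2803 and 3758. The 9 muscle markers summed to 10787, 14867 and 11966 FPKM but did not move as 1 group. In *Dspp*+/- 3 of the 9 were below WT. *Myh4* (124 FPKM in WT, 18.2 in *Dspp*+/-) and *Actn3* (122 and 31.0) were 2-fold lower, and *Myh2* (342 and 706) was 2-fold higher. The 6 osteocyte markers summed to 843, 352 and 324 FPKM, 8 B cell markers to 211, 354 and 377, and 7 endothelial markers to 128, 154 and 149. Their part in the results for the 10 genes was not tested, and in such bulk samples fewer cells of a type and less RNA per cell cannot be told apart.

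Set against the bone cells, most of the 7 genes were less far below WT than the osteoblast list. The log2 ratio less the osteoblast median (-1.58 in *Dspp*+/-, -0.89 in *Dspp*-/-) was 0.04 and -0.28 for *Dlx3*, which followed that list most closely in *Dspp*+/-. It was 0.51 and 0.22 for *Dlx5*, 0.66 and 0.20 for *Dlx2*, 0.79 and 0.42 for *Dlx1*, and 1.07 and 0.47 for *Msx1*. *Dlx6* was at 0.86 and 0.83, and *Prrx1* stood furthest above it in both libraries, at 1.20 and 0.98. Set against the tendon and fibrous layer list (-0.60 and -0.37), *Msx1* was at 0.09 and -0.05 and *Dlx1* at -0.20 and -0.10. Both were close to that list in both libraries on the FPKM + 1 scale. *Dlx3* lay below it, at -0.94 and -0.80, and *Prrx1* above it, at 0.21 and 0.46. For low genes these distances depend on the pseudocount. With 0.1 the log2 ratio of *Dlx1* to WT was -1.29 in *Dspp*+/- and -0.72 in *Dspp*-/-, against -0.79 and -0.47 with 1. The list medians were not recomputed with 0.1. When the libraries were scaled to the osteoblast markers, the median of the 7 genes was 0.45 in *Dspp*+/- and 0.19 in *Dspp*-/-, above WT, but still under the median of all genes, which was then 1.46 and 0.77. Of the 7, only *Dlx3* remained below WT in both, at -0.13 and -0.37. Counting intervals were not computed on that scaling, so whether values near 0 differ from WT beyond counting error was not assessed.

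**Figure D4:**
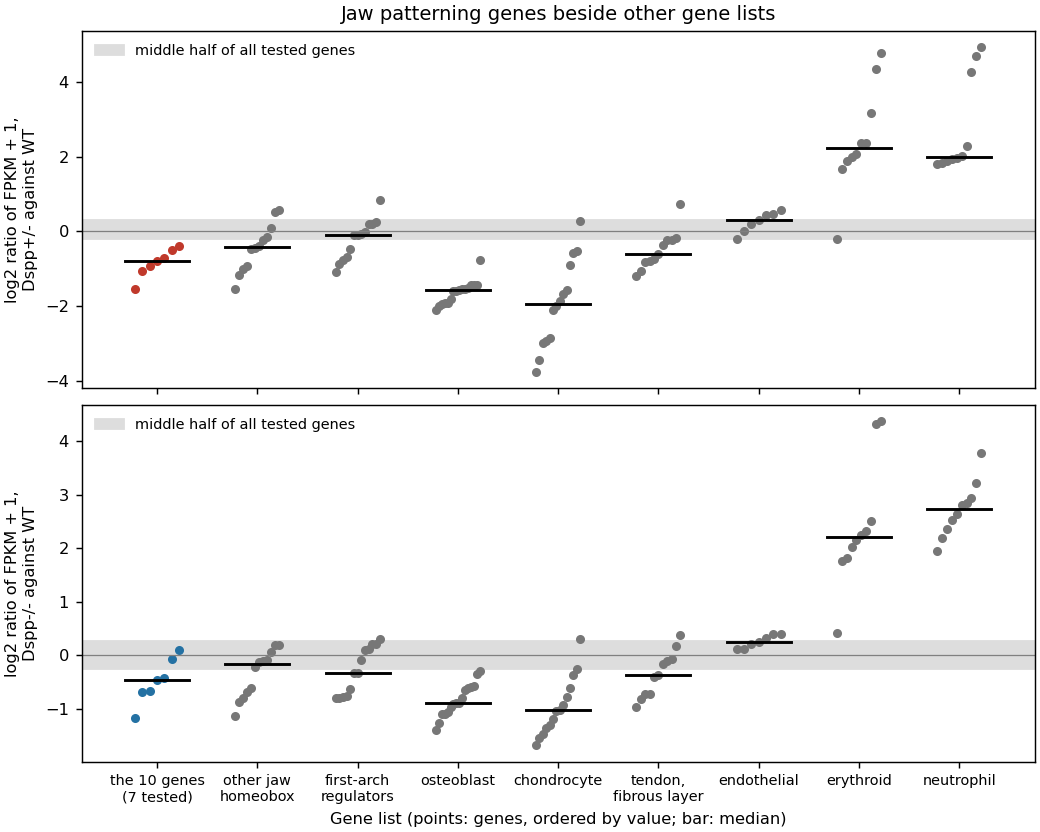
Log2 ratio of FPKM + 1 against WT in *Dspp*+/- (top) and *Dspp*-/- (bottom) for the 7 tested genes and 8 gene lists. Points are genes ordered by value, bars are medians and the grey band runs between the quartiles of all tested genes. On the deposited scaling the 7 genes (medians -0.79 and -0.47) lie between all genes and the osteoblast list (-1.58 and -0.89). Erythroid and neutrophil markers lie above 0 with 1 exception in *Dspp*+/-. Scaled to the osteoblast list, the medians of the 7 turn to 0.45 and 0.19, beside 1.46 and 0.77 for all genes.

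The genes whose 2 log2 ratios to WT lay nearest were looked up among genes that averaged 5 FPKM or more, by Euclidean distance over the 3 libraries. For *Dlx3* 3 genes lay within 0.1, namely *Cdr2l* (14.6, 4.38 and 6.07 FPKM, distance 0.033), *Creb3l1*, a transcription factor of secretory cells (51.9, 17.1 and 21.4, distance 0.071), and *Ifitm5*, a membrane protein gene of osteoblasts that is also in the osteoblast list (21.8, 6.81 and 9.69, distance 0.076). *Dlx3* was at least 2-fold lower in both mutant libraries, where 2.86% and 1.37% of all genes tested were. The distances take no account of counting error. For *Dlx6* 17 genes lay within 0.1, led by *Tgfbr1*, a receptor for TGF-beta (33.6, 20.3 and 32.5 FPKM), *Dsel* and *Angptl1*. *Dlx5* had 29, led by *Kcnk2*, *H1f0* and *Plvap*, and *Dlx2* had 40, led by *Slc4a2*, *Vstm4* and *Mageh1*. For *Dlx1* there were 45, led by *Tmem9*, *Fibin* and *Col15a1*, for *Prrx1* 56, led by *Hmgn3*, *Cfap36* and *Hacd1*, and for *Msx1* 86, led by *Ltbp1*, *Surf4* and *Furin*. With 3 libraries a pattern has only 2 values, so such likeness is a description.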

How the data were processed

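RNA of mandibular condyles was selected by poly(A), made into libraries with the NEBNext Ultra kit and sequenced as 150-base read pairs. The authors deposited 1 table with 1 value per gene for each genotype, and the labels mention triplicates, so each column was taken as 1 pooled library. The deposited values are FPKM, read from the values because the table names no unit: multiplied by GENCODE M21 exon length they were whole fragments within 0.05 for 98.6% to 98.7% of genes under 100 fragments. The submitters' processing notes name FastQC 0.11.5, HISAT2 2.1.0, StringTie 1.3.3b, DESeq 1.28.0 and hg38, a human build. Only 578 genes of the table have GRCm38 positions, and its build is not given in the sources used here. Recovered depth was 20241574 fragments for WT, 23613630 for *Dspp*+/- and 22253174 for *Dspp*-/-, and mitochondrial genes took 25.0%, 36.9% and 37.3% of FPKM. The targeted gene is not analysed here, and a few genes of the lists and 1 homeobox stretch are not reported here.

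From the deposited FPKM, log2 ratios with a pseudocount of 1 were computed for the 13026 genes with a mean of at least 1, and a gene was called at 2-fold. Counting intervals are 95% Clopper-Pearson intervals from the fragments, and 3 fragments were the floor for a count of 0. No test was run, as the Kruskal-Wallis test of the authors needs replicates. The members, gene lists and rules were chosen with earlier results of these data known. Named were the 10 genes, genes of the lists, RNAs and coding neighbours of the loci, and for each tested member the 3 genes nearest in pattern. Alternatives were pseudocounts of 0.1 and 5, no filter or a mean of 5, scaling by median ratio, upper quartile, without mitochondrial genes or to osteoblast markers, and thresholds of 1.5-fold and 4-fold. The script was tested on simulated data. Computations ran in Python 3.11.15 with pandas 2.3.3, numpy 2.4.6 and scipy 1.17.1, and figures were drawn with matplotlib 3.10.9.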

Additional observations from a re-analysis of the deposited data

Results flagged for a closer look

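*Prrx1* drew attention because the mutant libraries lay on opposite sides of WT, at 0.758 times the WT level in *Dspp*+/- and 1.07 times in *Dspp*-/-. Without mitochondrial genes the log2 ratio moved from -0.38 to -0.14 in *Dspp*+/- and from 0.09 to 0.34 in *Dspp*-/-, so *Dspp*-/- was then further from WT. Scaled to osteoblast markers, both lay above WT. With 1 library per genotype the difference was not tested.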

How the results depend on the processing

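With 1 library per genotype, no replicate could be left out and no spread between animals is known. No paired analysis was possible because each genotype has 1 library. Depth limits *Dlx4*, *Msx2* and *Hand2*. The count of the 7 genes at least 2-fold lower in *Dspp*+/- was 2 as reported, 4 with a pseudocount of 0.1, 1 with a pseudocount of 5, 1 without mitochondrial genes, 0 when scaled to osteoblast markers (where 1 was 2-fold higher), 5 at 1.5-fold and 0 at 4-fold. In *Dspp*-/- it was 1, and 0 with a pseudocount of 5, without mitochondrial genes, when scaled to osteoblast markers and at 4-fold, and 3 at 1.5-fold. The median log2 ratio was -0.79 in *Dspp*+/-, and -1.11 with a pseudocount of 0.1, -0.47 with 5 and 0.45 when scaled to osteoblast markers. In *Dspp*-/- it was -0.47, and -0.69, -0.22 and 0.19. That scaling turned *Dlx1* (0.13), *Dlx2* (0.39), *Dlx5* (0.45), *Dlx6* (0.68), *Msx1* (0.78) and *Prrx1* (1.15) in *Dspp*+/-, and *Dlx1* (0.09), *Dlx2* (0.05), *Dlx5* (0.19), *Dlx6* (0.75) and *Msx1* (0.29) in *Dspp*-/-. It also turned the median of *Dspp*+/- against *Dspp*-/- from -0.37 to 0.24. By construction it moves the median of all genes by 1.40 and 0.76, and leaving out mitochondrial genes moves it by 0.21 in both, which took *Dlx6* in *Dspp*-/- from -0.06 to 0.17. Of 106 values of single genes under the alternatives, 75 moved little and the rest moved further or turned. The filter settings cannot move the value of a single gene, so all of their values are among the 75 by construction.

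Over all genes, 373 were 2-fold lower and 636 higher in *Dspp*+/-, and 605 and 971 with a pseudocount of 0.1, 156 and 185 with 5, 225 and 959 without mitochondrial genes, and 24 and 10710 when scaled to osteoblast markers. In *Dspp*-/- 179 and 527 became 363 and 836, 45 and 136, 71 and 755, and 20 and 3656. At 1.5-fold there were 1166 lower and 1501 higher for *Dspp*+/-, against 1070 lower and 1152 higher for *Dspp*-/-. At 4-fold there were 24 lower and 124 higher, against 6 lower and 103 higher.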
